A study of Homo sapiens with 8 samples.

Results

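CDK12, CDK13 and CCNK encode a pair of paralogous transcription kinases and their shared partner cyclin K, and they were examined here as substrates of 3′-end formation in neuroblastoma cells. The members were all peaks of poly(A) 3′-seq reads that overlapped the gene record of 1 of these 3 genes or the 4000 bp after its 3′ end. There were 60 such peaks among the 153624 peaks of the whole list, of which 21 fell on CDK12, 29 on CDK13 and 10 on CCNK. The members were chosen by gene and position alone.

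CDK12 and CDK13 are paralogous kinases that become active on binding cyclin K and phosphorylate the C-terminal domain of RNA polymerase II while it elongates. Cleavage and polyadenylation ends a transcript a short distance after a signal hexamer, most often AATAAA or ATTAAA, and the same machinery can act within an intron and cut the mRNA short. Long genes carry many such intronic signals, which are normally passed over.

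The libraries came from Kelly cells, an established MYCN-amplified neuroblastoma line, and from Kelly E9R, a derivative that acquired, during growth in rising doses of a related inhibitor, a point mutation of CDK12 at the cysteine that THZ531 binds. Each line was treated for 6 h with DMSO or with THZ531, a covalent inhibitor of CDK12 and CDK13, with 2 libraries in each of the 4 groups. The labels give 400 nM, as does a supplementary caption of the study for these lines. The study's methods give a lower concentration for poly(A) 3′-seq of both lines, so the labels' value may not be the dose used. Peaks were called once on the merged reads of the 8 libraries, and the list holds neither values for single libraries nor strands. No difference between THZ531 and DMSO or between Kelly and Kelly E9R could therefore be tested, the peaks have no replicates, and every value below describes the pool. Of 12 neuroblastoma marker genes, all 12 held a peak at their 3′ end, compared with 3 of 8 markers of other cell types, where COL1A1 reached a pileup of 16, COL3A1 of 7 and EPCAM of 6 and where PTPRC, CD3E, KRT5, ALB and PECAM1 held none.

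Because the first base read in this assay is the last base before the poly(A) tail, and all 3 genes lie on the plus strand, the right edge of a peak marks the presumed cleavage position, called here the 3′ end of the peak. Each 3′ end was searched for 12 signal hexamers in the 100 bp before it and for genomic A-rich sequence in the 50 bp after it, meaning an unbroken run of 6 A or a 10-base window with 7 of them. A-rich genomic sequence can be primed by oligo(dT) without any poly(A) tail. Peaks with a signal and without A-rich sequence offer no such second origin in the 50 bp searched on the plus strand. Because the list holds no strands, the other strand can still offer one, as can A before the 3′ end. In introns of protein-coding genes as a whole, 50.4% of 83920 peaks held a signal, 79.8% were A-rich and 15% held a signal without being A-rich.

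Of the 39 intronic peaks of the 3 genes, 5 held a signal and were not A-rich (12.8%, 95% Wilson interval 5.6 to 26.7). All 5 lay in CDK13, which holds 26 of the 39 intronic peaks. Its own share was 5 of 26 (19.2%, interval 8.51 to 37.9), and the 15% over all genes lay within that interval. That value also lay within the intervals of CDK12 (0 of 9, 0 to 29.9%) and CCNK (0 of 4, 0 to 49%). The 5 peaks are shown with 100 bases before and 50 after the 3′ end on the plus strand of GRCh38, with signal hexamers in capitals. They were chosen as the only member peaks within introns that meet both sequence criteria on the plus strand.
CDK13 intron 1, chr7:39969823-39969972: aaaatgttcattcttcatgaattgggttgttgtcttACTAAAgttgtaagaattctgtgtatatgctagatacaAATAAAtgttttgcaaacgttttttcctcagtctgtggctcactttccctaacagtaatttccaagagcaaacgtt
CDK13 intron 3, chr7:39997771-39997920: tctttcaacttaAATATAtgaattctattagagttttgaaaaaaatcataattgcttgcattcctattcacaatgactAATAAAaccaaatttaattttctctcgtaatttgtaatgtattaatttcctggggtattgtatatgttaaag
CDK13 intron 5, chr7:40006300-40006449: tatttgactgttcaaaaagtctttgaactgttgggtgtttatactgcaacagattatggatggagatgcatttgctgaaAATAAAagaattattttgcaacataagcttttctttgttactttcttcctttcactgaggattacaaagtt
CDK13 intron 5, chr7:40009157-40009306: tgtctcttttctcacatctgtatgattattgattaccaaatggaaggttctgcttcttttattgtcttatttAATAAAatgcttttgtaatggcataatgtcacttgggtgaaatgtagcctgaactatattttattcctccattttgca
CDK13 intron 7, chr7:40048416-40048565: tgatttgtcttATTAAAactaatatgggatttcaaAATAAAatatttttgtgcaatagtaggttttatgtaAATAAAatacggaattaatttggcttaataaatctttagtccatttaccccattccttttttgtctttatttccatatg

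Each of these 5 sites carried AATAAA, and its first base lay 26, 22, 21, 28 and 29 bp before the 3′ end in the order shown. The interval from 20 to 30 bp was set after these values were seen. Over all genes, 38.7% of the 12577 intronic peaks with a signal and without A-rich sequence had AATAAA at that distance. On the other strand, the sites of introns 1 and 7 were A-rich. Those of introns 3 and 5 held a variant hexamer there without A-rich sequence. The 5 peaks were of ordinary size, with fold enrichments of 8.93, 5.71, 6.84, 6.53 and 5.82 and pileups of 14, 11, 12, 12 and 10. Pileup is the number of extended reads stacked at the summit, and fold enrichment is that number plus 1 over the local background plus 1. The whole list had a median pileup of 9 and a median fold enrichment of 6.29.

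**Figure D1:**
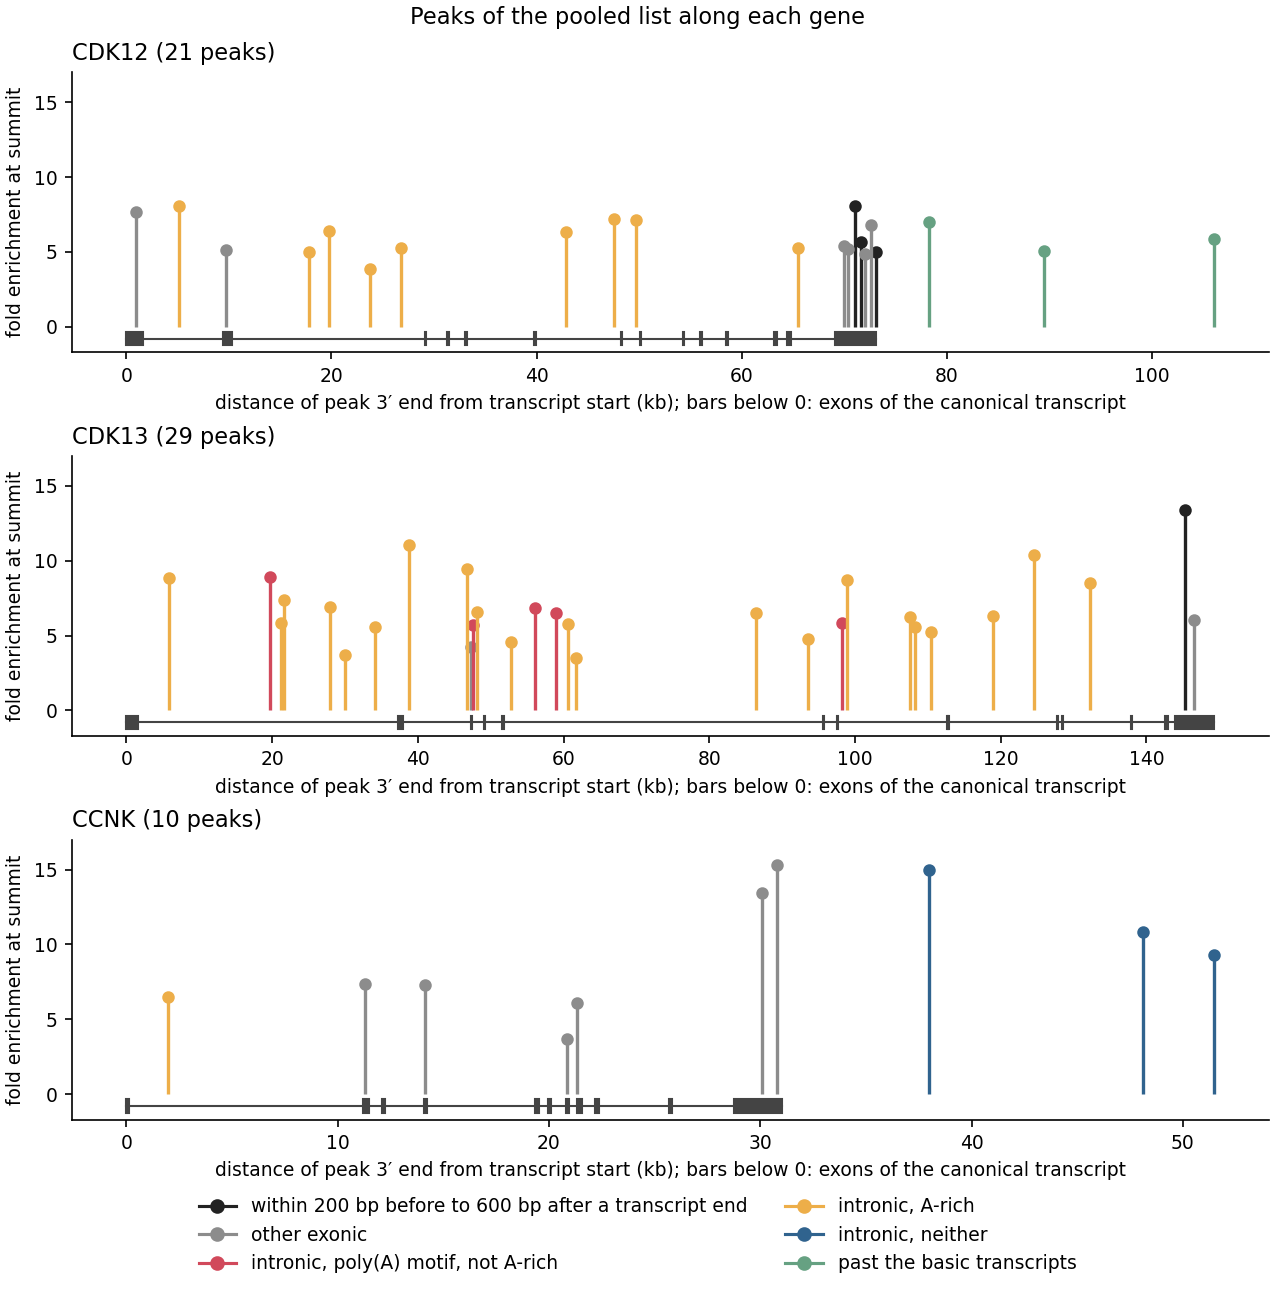
Each stem is 1 of the 60 peaks, placed at the distance of its 3′ end from the start of the canonical transcript (kb) and drawn to its fold enrichment (linear axis), with the exons of the canonical transcript as bars below 0 and the class of the peak in colour. The 5 intronic peaks with a signal and without A-rich sequence all stand in CDK13, which holds 26 of the 39 intronic peaks. All 9 intronic peaks of CDK12 are A-rich, where the share over all genes is 79.8%. The 3 CCNK peaks past the canonical exons rise to 15, 10.9 and 9.3.

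CDK12 (ENSG00000167258.16, chr17:39461486-39567559) encodes the kinase best known for the expression of long genes and of DNA repair genes, and its canonical transcript has 14 exons and 1490 codons. Its 21 peaks comprised 9 intronic peaks, 6 exonic peaks, 3 peaks at a transcript end and 3 peaks past the basic transcripts, that is past chr17:39534544 but within the longer gene record. A peak was placed at a transcript end when it touched the interval from 200 bp before to 600 bp after the end of a GENCODE basic transcript, and no member peak lay in the 4000 bp after any gene record.

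Every intronic peak of CDK12 was followed by A-rich sequence (9 of 9, 95% Wilson interval 70.1 to 100%). The share over all genes, 79.8%, lay within that interval. In 4 of the 9 this was a long stretch, 25 A with at most 3 mismatches (44.4%, interval 18.9 to 73.3), whereas 8.47% of intronic peaks of all genes had one. No intronic peak of CDK12 held AATAAA or ATTAAA (0 of 9, interval 0 to 29.9%), where the share over all genes, 27.2%, lay within that interval, and 3 of 9 held a variant hexamer. Such intervals cover counting error only, and the peaks of one gene share its sequence.

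The intronic peaks of CDK12 were distributed over introns 1, 2, 6, 7 and 13. Intron 1 (7.76 kb) held 1 peak, the strongest of the 9, with a fold enrichment of 8.08 and a pileup of 15, located 3507 bp after the 5′ splice site. Intron 2 (18.8 kb) held 4 peaks with fold enrichments of 5, 6.38, 3.85 and 5.22. Intron 6 held 2 peaks, the stronger of which reached 7.18 with the variant AATAGA 29 bp before its 3′ end. The single peak of intron 7 reached 7.1 and was followed by a long A stretch, and that of intron 13 reached 5.26. In position along the message, 7 of the 9 lay upstream of exon 7. This exon encodes the DFG motif of the kinase active site at codons from 877 onward. The 2 longest introns, 2 and 6, both lie upstream of it and held 6 of the 9 peaks in 41.8% of the intron length. Introns 1 to 6, upstream of exon 7, measured 7.76, 18.8, 2.02, 1.63, 6.55 and 8.27 kb, most of the 64.8 kb of intron. The count of 7 was therefore not read as a concentration upstream of exon 7. A transcript ended upstream of exon 7 would lack the motif. Whether any of these A-rich peaks marks a transcript end was not tested. At the intron 1 peak, 348 of 1490 codons precede the site, and at the 4 peaks of intron 2, 643 codons.

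The last exon of CDK12 held 7 peaks over a long 3′ untranslated region. The strongest, chr17:39532164-39532487, reached a fold enrichment of 8.09 and a pileup of 29, and its 3′ end lay 10 bp past the annotated end of the transcript CDK12-201. It had no signal hexamer in the 100 bp before that position and was A-rich. The peak chr17:39534441-39534542, whose 3′ end lay 2 bp before the end of the canonical transcript CDK12-202, was weaker (fold enrichment 5, pileup 17). It carried ATTAAA 21 bp before its 3′ end and was not A-rich on the plus strand. On the other strand it was A-rich and held TATAAA. Between these 2 peaks, chr17:39532959-39533067 reached 5.66 with AATAAA 29 bp before its 3′ end and was A-rich. The last 30 bases of the 3 peaks are given in this order because they differ in the signal.
CDK12 last exon, chr17:39532458-39532487: tgtcaaaaaaaaaacaaaaacctttcaaac
CDK12 last exon, chr17:39533038-39533067: aAATAAAatctacttataagagaaaggtgc
CDK12 last exon, chr17:39534513-39534542: gattggaaaATTAAAtatttcctgttacta
The other 4 peaks of the exon had fold enrichments of 5.41, 5.22, 4.86 and 6.81. Of these, 2, with 5.22 and 4.86, carried AATAAA 27 and 21 bp before their 3′ ends without A-rich sequence. On the other strand both were A-rich. The pileups of the 7 peaks ranged from 17 to 29, all above the highest intronic pileup of CDK12, 15; their fold enrichments, 4.86 to 8.09, overlapped the intronic range of 3.85 to 8.08. The local background was 2.6 to 2.88 reads per 100 bp in the last exon and 0.3 to 0.98 at the intronic peaks.

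Past the basic transcripts, the gene record of CDK12 held 3 further peaks. The peak chr17:39550877-39550976 ended exactly at the annotated end of CDK12-209, a retained-intron transcript, and chr17:39567457-39567557 ended 2 bp before that of CDK12-204, a transcript annotated for nonsense-mediated decay. The latter had AATAAA 19 bp before its 3′ end, with a fold enrichment of 5.83 and a pileup of 6. No A-rich sequence followed it, but 7 of its last 10 bases were A. The peak at the end of CDK12-209 was A-rich, held no hexamer and reached 5.04. The third, chr17:39539640-39539783, was A-rich and reached 6.98 at 5239 bp from the nearest annotated end. The remaining exonic peaks lay in exon 1 (fold enrichment 7.65, A-rich, ACTAAA 18 bp before the 3′ end) and in exon 2 (5.15, neither hexamer nor A-rich sequence).

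CDK13 (ENSG00000065883.18, chr7:39950121-40099580) encodes the paralogous kinase; its canonical transcript has 14 exons and 1512 codons. Of its 29 peaks, 26 were intronic, 2 exonic and 1 at a transcript end. The intronic peaks ranged in fold enrichment from 3.48 to 11, with a median of 6.41, and in pileup from 6 to 20. A signal was held by 13 of the 26 (50%, interval 32.1 to 67.9), near the 50.4% of all genes, and AATAAA or ATTAAA by 7 (26.9%), near the 27.2% of all genes. In the mirror window of the other strand, which serves as a background for chance matches in the same AT-rich introns, any of the 12 hexamers was found at 11 of the 26 peaks and AATAAA or ATTAAA at 0, where over all genes the mirror window held any hexamer at 33.7% and AATAAA or ATTAAA at 12.8% of intronic peaks. A hexamer without A-rich sequence was found in the mirror window at 8 of the 26 peaks, compared with 5 on the CDK13 strand, and over all genes at 23.5% against 15%. A-rich sequence followed 21 of 26 (80.8%, interval 62.1 to 91.5), and a long A stretch 1 of 26 (3.85%, interval 0.682 to 18.9).

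Introns 1 and 5 of CDK13, the longest with 35.7 and 43.8 kb, held 7 peaks each, together 14 of 26 intronic peaks in 56.9% of the intron length. Intron 7 (14.9 kb) held 5 peaks, introns 2, 3 and 9 held 2 each, and intron 11 held 1. The strongest was chr7:39988989-39989097 in intron 2, 839 bp after the 5′ splice site, with a fold enrichment of 11 and a pileup of 18. The next was chr7:40074735-40074896 in intron 9, with 10.4 and a pileup of 20, where the variant AATACA lay 27 bp before the 3′ end and A-rich sequence followed. The third, chr7:39996865-39996972 near the end of intron 2, reached 9.48 with no hexamer. In both peaks of intron 2 the last 10 bases before the 3′ end were all A. All 3 were A-rich, so the strongest intronic peaks of CDK13 were not those with a signal alone, among which 8.93 in intron 1 was the highest.

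Of the 26 intronic peaks of CDK13, 18 lay upstream of exon 7, which holds the DFG codons from 855 onward. Introns 1 and 5, with 14 of the 26 peaks in 56.9% of the intron length, both lie upstream of that exon. Introns 2, 3, 4 and 6, with 9.23, 1.7, 2.36 and 1.79 kb, lie there too. The count of 18 was therefore not read as a concentration upstream of exon 7. Of the 18, 4 were among the 5 peaks with a signal and without A-rich sequence. The codons that precede these 5 sites number 403 in intron 1, 680 in intron 3, 784 in intron 5 for both peaks there, and 866 in intron 7, out of 1512. The first of them lay 18070 bp into intron 1 and the second only 206 bp into intron 3, 113 bp before the annotated end of the transcript CDK13-208. A separate A-rich peak of intron 7, with a fold enrichment of 8.7, ended 19 bp before the annotated end of CDK13-219, a retained-intron transcript. It was the single intronic peak of the 3 genes whose 3′ end lay within 25 bp of any annotated transcript end, a distance chosen after the values were seen; 1.76% of intronic peaks of all genes did so.

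The strongest peak at the 3′ end of CDK13 was chr7:40095431-40095556, with a fold enrichment of 13.4 and a −log10 q of 32.7. Its pileup of 39 was the highest of the 60 peaks. It ended 1 bp past the annotated end of CDK13-202, with AATAAA 48 bp and TATAAA 13 bp before the 3′ end. On the other strand the peak was A-rich and held no hexamer. On the plus strand the last 10 bases before the 3′ end were all A, although the 50 bp after it were not A-rich. Its last 30 bases are shown for that run, with TATAAA in capitals.
CDK13 last exon, chr7:40095527-40095556: tcttgatgcaacagtttTATAAAaaaaaaa
A second peak of the last exon, chr7:40096681-40096825, reached 6.06 with a pileup of 17 and was A-rich, with TATAAA 65 bp before its 3′ end. No peak reached the end of the canonical transcript at chr7:40099580. The remaining exonic peak touched exon 3 and reached 4.27. No gene lay on the other strand at any CDK13 peak, and the lncRNA ENSG00000289269 on the same strand overlapped none of them.

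CDK12 and CDK13 share their exon structure, with 9 of 14 exons of identical length, among them exons 4 to 11, so their introns can be set side by side. Intron 5, upstream of the DFG exon in both, held 0 peaks in CDK12 and 7 in CDK13, and measured 6.55 and 43.8 kb. Intron 6 held 2 peaks in CDK12 (8.27 kb) and 0 in CDK13 (1.79 kb), and intron 7 held 1 peak in CDK12 (1.77 kb) and 5 in CDK13 (14.9 kb). Intron 2 showed the reverse order in length, 18.8 kb with 4 peaks in CDK12 and 9.23 kb with 2 in CDK13. The first intron held 11.1% of the peaks in 12% of the intron length of CDK12, and 26.9% of the peaks in 25.6% of the length of CDK13. The median length was 7.76 kb for introns with a peak and 2.21 kb for those without in CDK12, and 14.9 kb and 1.34 kb in CDK13. The lengths overlapped, since the longest intron without a peak measured 6.55 kb in CDK12 and 4.45 kb in CDK13 and the shortest with one 1.77 and 1.7 kb. Intron 3 of CDK13 stood apart, with 2 peaks in 1.7 kb.

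**Figure D2:**
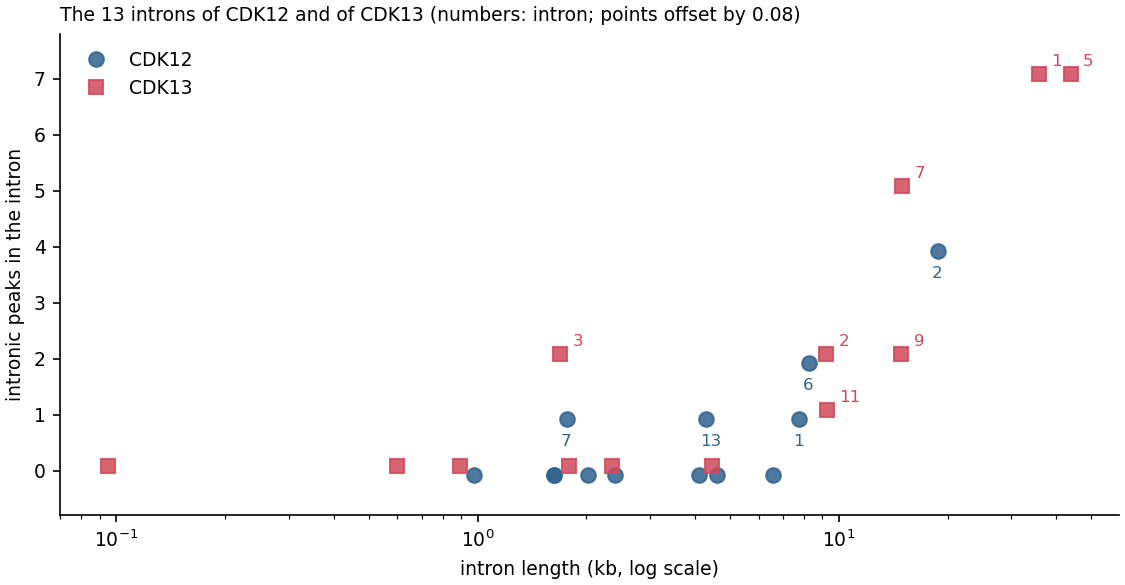
Each point is 1 of the 13 introns of CDK12 (circles) or CDK13 (squares), with its length in kb on a log axis and its number of intronic peaks on a linear axis; introns with a peak are numbered. Introns 1 and 5 of CDK13 lie at the upper right with 7 peaks each, and intron 3 of CDK13 holds 2 peaks at 1.7 kb.

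CCNK (ENSG00000090061.17, chr14:99481169-99535044) encodes cyclin K, without which neither kinase is active; the canonical transcript CCNK-201 has 11 exons, 580 codons and ends at chr14:99512440. None of its 10 peaks fell at the end of a basic transcript, 6 were exonic and 4 intronic. CCNK is the only member crossed by a gene on the opposite strand: CCDC85C, a coiled-coil protein gene, overlapped 7 of its 10 peaks, and without strands a peak there cannot be assigned to either gene. For a transcript of CCDC85C the left edge of the peak is the 3′ end, so both edges were read.

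The CCNK peaks of highest pileup were a pair in the last exon, which differed in the strand that carried the signal. At chr14:99511082-99511512 (fold enrichment 13.5, pileup 32) AATAAA lay 19 bp before the right edge on the CCNK strand, no hexamer was present on the other strand, and the right edge lay 2 bp before the annotated end of CCNK-203. At chr14:99512032-99512193 (fold enrichment 15.3, −log10 q 33.9, pileup 36) the CCNK strand held ACTAAA 86 bp before the right edge, 247 bp short of the canonical end. There the other strand held AATAAA 27 bp before the left edge, which coincided to the base with the annotated end of CCDC85C-207. The 30 bases up to each edge are shown on the strand named, with the hexamer in capitals.
CCNK strand, first peak, chr14:99511483-99511512: tcagttatccaAATAAAagcagttctgaaa
CCDC85C strand, first peak, chr14:99511082-99511111: tccttaccgaagctatttattgagccaata
CCNK strand, second peak, chr14:99512164-99512193: ttgtctccccacgtcagagtggttgaatag
CCDC85C strand, second peak, chr14:99512032-99512061: ataAATAAAggcctctttgtgagcctcctg
Both peaks lie within the span of both genes, so neither was counted as evidence for the level of CCNK.

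Downstream of the canonical exons, the longer transcript CCNK-204 spans 3 intronic peaks, all within CCDC85C. They had fold enrichments of 15, 10.9 and 9.3 and pileups of 18, 13 and 11. On the CCNK strand all 3 held neither a hexamer nor A-rich sequence. Over all genes, 79.8% of intronic peaks were A-rich, 15% held a signal without being A-rich, and the rest held neither. On the CCDC85C strand all 3 were A-rich, where 18.3% of intronic peaks of all genes were A-rich on the other strand. The peak with 10.9 also held AATAAA there, 15 bp before its left edge. Intron 1 of CCNK held the only intronic peak within the canonical transcript, at 1907 bp from the 5′ splice site, with a fold enrichment of 6.47 and A-rich sequence, and it precedes the first codon.

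Internal exons of CCNK held 4 peaks. The peak of exon 2, next to the start codon with 2 codons before it, reached 7.36 with AATAAA 11 bp before its 3′ end and A-rich sequence after it. The peak of exon 4 reached 7.32, was A-rich, and ended exactly at the annotated end of CCNK-205. The peaks of exons 7 and 8 reached 3.7 and 6.1. Both were A-rich without a hexamer on the CCNK strand, and on the CCDC85C strand the first had ATTAAA 16 bp and the second AATAAA 22 bp before the left edge.

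In exonic peaks and peaks at transcript ends of all genes, 76% held a signal, 66.2% of the former and 85.2% of the latter. Among the members, 11 of 14 exonic peaks and 3 of 4 peaks at transcript ends did. Of all 60 peaks, 4 ended within 2 bp of an annotated transcript end with AATAAA or ATTAAA no farther than 50 bp upstream. They lay at the ends of CDK12-202, CDK12-204, CDK13-202 and CCNK-203. At CDK12-204, 7 of the last 10 bases were A, and at CDK13-202 all 10 were. These distances were chosen after the values were seen, and the share of all peaks that meet them was not computed. Within 25 bp of an annotated end lay 3 of 4 member peaks at transcript ends and 2 of 14 exonic ones. Over all genes, 64.3% and 9.09% did. A −log10 q of at least 5 was reached by 31 of the 39 intronic member peaks. Over the whole list, with peaks of every class, 73.5% reached it. The share over intronic peaks alone was not computed.

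**Figure D3:**
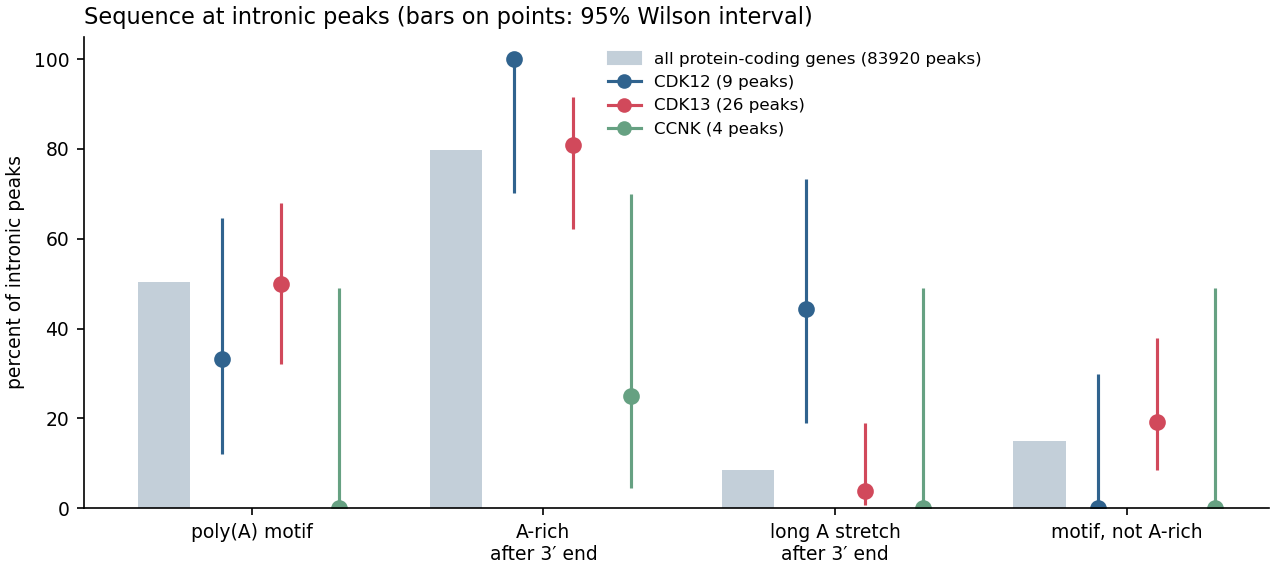
Grey bars give the percent of intronic peaks of all protein-coding genes with each sequence feature, and points with 95% Wilson intervals give the same for CDK12 (9 peaks), CDK13 (26) and CCNK (4). The long A stretch is at 44.4% in CDK12 against 8.47% over all genes, and CDK13 lies at 50% for the signal against 50.4%.

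Whether these genes held many intronic peaks was read against protein-coding genes within 20% of the same length that also held a peak at a transcript end. CDK13, with 26 intronic peaks where the median gene had 16, exceeded 91.2% of 797 such genes (95% Wilson interval 89 to 93). CDK12 had 9 where the median was 8, with fewer in 57.4% of 1238 genes (54.7 to 60.2). CCNK had 4 where the median was 6, with fewer in 23.1% of 1431 genes (21 to 25.4), and 3 of the 4 lay under CCDC85C. Without these CCNK had 1 peak and ranked at 9.08%. With no transcript-end peak of its own it did not meet the condition set for the genes it was compared with. Per 100 kb of intron the values were 18.6 for CDK13, 13.9 for CDK12 and, with all 4 of its peaks counted, 8.04 for CCNK, where the medians of the like-length genes were 11.5, 12 and 12.5. Of peaks with a signal and without A-rich sequence, CDK13 had 5 against a median of 2, and 83.9% of the like-length genes had fewer. CDK12 and CCNK had none, as did 30.3% and 35.2% of their like-length genes. These are ranks among genes of 1 pool. The intervals of the ranks reflect only the number of genes compared and leave out the error in a member's own count of peaks. Without peaks that had a long A stretch and no signal, a removal the study also made, CDK12 was left with 5 intronic peaks and fell to 26.1%, next to 25.9% for CCNK. The order of CDK12 and CCNK turned when −log10 q of at least 10 was required (24.5% and 81%) and when the summit decided the class (51.3% and 52.5%).

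**Figure D4:**
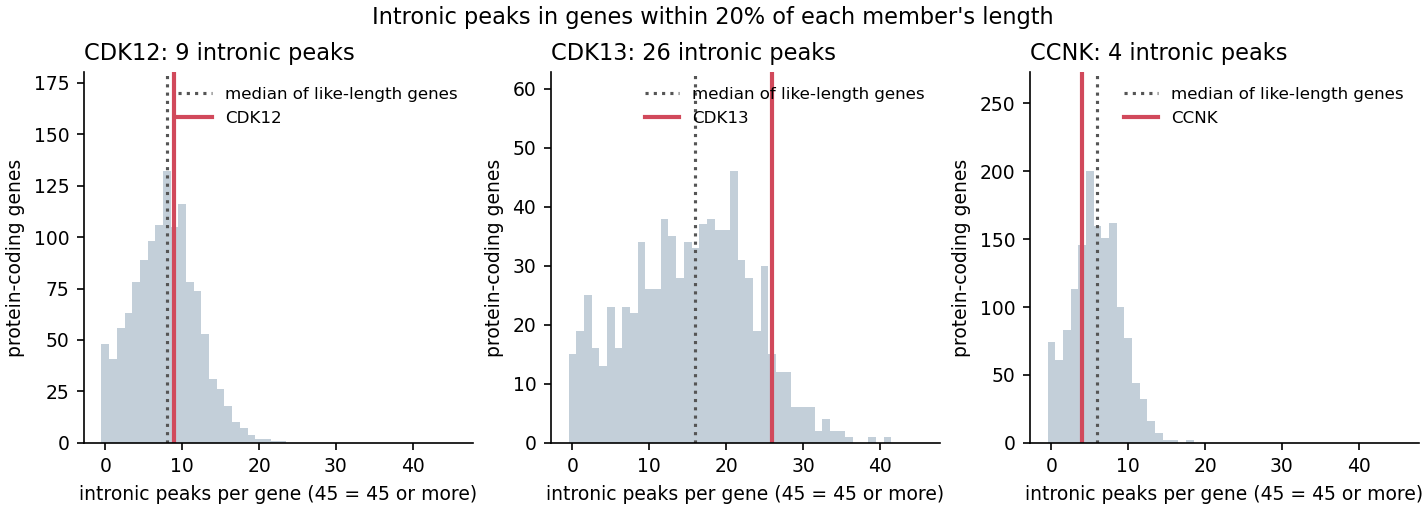
Histograms of the number of intronic peaks in protein-coding genes within 20% of the length of each member, on linear axes, with the median dotted and the member as a solid line. CDK13 stands in the upper tail with 26 peaks against a median of 16, CDK12 next to its median with 9 against 8, and CCNK below it with 4 against 6.

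The base composition of the genes also differed. GC content was 38.7% in CDK13, 43.3% in CDK12 and 50.1% in CCNK, where the medians of like-length genes were 40.8, 41.7 and 42.7%. CDK13 held 158 AATAAA and 76 sites of the U1 snRNP type (the hexamer GGTGAG, the hexamer GGTAAG or the hexamer GTGAGT on the coding strand, overlaps counted), a log2 ratio of U1 to AATAAA of −1.05, and 14.7% of like-length genes had a lower one. CDK12 held 38 AATAAA and 44 U1 sites, a log2 ratio of 0.21, with 70% of like-length genes lower, and CCNK 42 and 40, a log2 ratio of −0.07, with 53.3% lower. U1 snRNP binds 5′ splice sites and is known to protect nascent transcripts from premature cleavage. The part of composition in the number of peaks was not tested.

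Other transcription kinases and their cyclins gave the wider family. Of 15 genes, namely CDK7, CCNH, MNAT1, CDK8, CDK19, CCNC, CDK9, CCNT1, CCNT2, CDK10, CCNQ, CDK11A, CDK11B, CCNL1 and CCNL2, 13 held a peak at a transcript end and 11 held an intronic peak. Of 12247 protein-coding genes with an intron and a peak at a transcript end, 9393 held an intronic peak. The 15 genes did not have to hold a transcript-end peak. Their median density was 8.96 intronic peaks per 100 kb of intron, and that of the 12247 genes was 10.4. The highest value of the list was 15.1, in MNAT1, the assembly factor of the CDK7 complex, with 35 intronic peaks, below the 18.6 of CDK13. CDK9, CDK10, CCNQ and CDK11A held none, in 2.28, 12.1, 9.96 and 18.8 kb of intron. Reads of CDK11A and its near-identical copy CDK11B may not be separable.

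The pileups behind these values were low. Intronic member peaks had a median pileup of 11 and a median fold enrichment of 6.47, compared with 8 and 5.99 over intronic peaks of all genes, and the lowest, in intron 2 of CDK12, rested on a pileup of 4. The highest pileup of the whole list was 200, and 16 peaks passed 100, so that pileups may count distinct read starts instead of reads; they give no expression level, and fewer cells using a site and less RNA per cell cannot be told apart in the pool.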

How the data were processed

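Poly(A) 3′-seq libraries were made from Kelly and Kelly E9R cells with the QuantSeq REV kit, 2 per group. Per the submitters' processing notes the tools were STAR 2.5.1b, SAMtools, deepTools 2.5.4 and MACS2 2.1.1, with GRCh38. The authors called peaks on the merged reads of the 8 libraries. Of the deposited columns, the score is an integer display value and was not tested. The ratio, as fold enrichment, and the −log10 p- and q-value columns deposited by the authors are MACS2 output against the local background. The summit is deposited as a distance in bp from the left edge. There were 0 columns of values per library, so depth per library is unknown, no test between groups was run, and 4 groups enter only as a pool.

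From these values the pileup and local background of each peak were solved from fold enrichment and p (all 153624 gave a whole pileup, within 0.001 of −log10 p). Peaks were set against GENCODE v44 basic transcripts and the GRCh38 sequence with Python 3.11.15, numpy 2.4.6 and scipy 1.17.1. The class of a peak was decided in the order transcript end, exon, intron. The 12 hexamers were searched in a fixed order, first AATAAA, then ATTAAA, then AGTAAA, then TATAAA, then AATATA, then AATACA, then CATAAA, then GATAAA, then AATGAA, then ACTAAA, then AAGAAA, then AATAGA, and where several matched, the earliest in this order was named. The same windows, mirrored at the left edge, were read on the other strand. Intervals are Wilson intervals at 95% and cover counting error only, which for a rank is that of the genes compared. The steps were tested on simulated data. Named were the 3 genes, genes overlapping them, the extremes of the kinase and cyclin list, and, of the peaks, those at transcript ends, the 3 strongest intronic ones per gene and those with a signal and without A-rich sequence; peaks outside this rule were described after their values were seen. The genes and lists were chosen with earlier results of these data known. The sequences of the strongest intronic peak of each gene are not reported here.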

Additional observations from a re-analysis of the deposited data

How the results depend on the processing

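Of 63 values under alternative settings, 27 kept to the main value, within 1.5 times for a count and within the 95% interval for a share or rank, and 36 moved. The rank of CDK13 among like-length genes stayed between 76 and 95.9% under the 9 alternatives, whereas those of CDK12 and CCNK crossed the middle. With −log10 q of at least 5, CDK12 had 5 intronic peaks and the ranks became 41.4% for CDK12, 95.9% for CDK13 and 40.1% for CCNK. With at least 10, CDK12 had 1 peak (24.5%), CDK13 had 7, the rank of CCNK was 81% and the A-rich share of member intronic peaks was 63.6%. Removing peaks with a long A stretch and no signal left CDK12 with 5 (26.1%) and put CCNK at 25.9%. With all transcripts the ranks were 40.2% for CDK12, 76% for CDK13 and 31.2% for CCNK. With the summit deciding, they were 51.3% for CDK12 and 88% for CDK13, and CCNK had 7 intronic peaks (52.5%). Counting only peaks with a signal and without A-rich sequence gave CDK12 0 (0%), CDK13 5 (83.9%) and CCNK 0 (0%). Without peaks under a gene on the other strand CCNK had 1 (9.08%) and CDK12 ranked at 62.7%. Against genes with or without a transcript-end peak the ranks were 66.4% for CDK12, 93% for CDK13 and 39.7% for CCNK, and within 10% of the length that of CCNK was 19.9%. The signal share of member intronic peaks, 41%, was 17.9% with AATAAA and ATTAAA alone and 25.6% before the summit. The A-rich share, 79.5%, was 12.8% for the long stretch and 51.3% for 6 A in a row alone. Beyond the narrower or wider definitions themselves, the cause of these moves was not tested. No paired analysis was possible because the list holds no values for single libraries, so the fit with a replicate block was not run and no replicate could be left out. Depth limits what is seen: a site needs a pileup of at least 3 to be in the list, and unlisted sites are not shown to be unused.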
